A study of Homo sapiens with 8 samples.

Results

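The genes described here were 10 members of the insulin-like growth factor (IGF) system, picked by name for their place in it, out of 18955 genes in the table. They were 6 secreted binding proteins (IGFBP2, IGFBP3, IGFBP4, IGFBP5, IGFBP6 and IGFBP7), the receptors IGF1R and IGF2R, and the receptor adaptors IRS1 and IRS2. They were measured by droplet single-cell RNA sequencing in SUM159, a human breast cancer cell line that lacks the hormone receptors and HER2. All cultures carried the lentiviral ClonTracer library of DNA barcodes, and the replicate cultures of a treatment were combined before cells were captured. The 8 libraries were cells before treatment, cells passaged in the vehicle DMSO, and cells passaged in paclitaxel at 0.6 nM, palbociclib at 160 nM, JQ1 at 100 nM (JQ1-A and JQ1-B, from separate experiments), JQ1+paclitaxel or JQ1+palbociclib at the same doses, for up to 18 passages. Of the drugs, JQ1 keeps BET bromodomain proteins off acetylated chromatin, palbociclib inhibits CDK4 and CDK6, and paclitaxel holds microtubules together. DMSO, paclitaxel, JQ1-A and JQ1+paclitaxel formed 1 experiment, and palbociclib, JQ1-B and JQ1+palbociclib another without a vehicle library. A JQ1+palbociclib culture was lost during selection.

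IGF1 and IGF2 bind the receptor tyrosine kinase IGF1R, which recruits IRS1 and IRS2 and so passes the signal to PI3K, AKT and mTOR and to the RAS pathway. IGFBP2 to IGFBP6 hold IGFs outside the cell with high affinity and can limit or prolong their action, whereas IGFBP7 binds IGFs weakly and is also found in the extracellular matrix. IGF2R, the cation-independent mannose 6-phosphate receptor, clears IGF2 and carries lysosomal enzymes, and does not signal through a kinase.

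The libraries held 459 to 1024 cells and 10621159 to 24240835 unique molecular identifiers (UMIs, 1 per captured RNA molecule). Levels are given as CPM, the UMIs of a gene per 1000000 UMIs of its library. A library was made from combined cultures, so p-values measure the spread between libraries beyond the drug terms of the fit below. The pre-treatment and DMSO libraries both counted there as libraries without drug. The epithelial and mesenchymal markers listed for SUM159 (VIM, CD44, KRT18, KRT8 and EGFR) were present in every library, with VIM between 3279 and 4502 CPM. The hormone receptor genes ESR1 and PGR, which define the receptors a triple-negative line lacks, had 7 and 4 UMIs in all. Of the markers for other cell types, PTPRC had 16 UMIs in all and CD68 lay between 7.71 and 12.1 CPM in every library. CD3E, PECAM1, VWF and HBB were not among the 18955 genes. Mitochondrial RNA made up a median of 3.72 to 3.96% of a cell's UMIs in the pre-treatment, DMSO and paclitaxel libraries and 4.69 to 7.18% in the other 5, so it moved with JQ1 and palbociclib exposure. Its part in the results was not tested. Of the droplet barcode sequences that name cells, which are not the ClonTracer barcodes, only 13 occurred in more than 1 library, in 26 of 5738 cells.

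Each tested gene was fitted with 3 terms. The JQ1 term set 4 libraries against 4, and the palbociclib and paclitaxel terms each set 2 against 6. A gene entered the fit with at least 5 CPM in at least 2 libraries, which 9288 genes did, and was called at an adjusted p under 0.05. Of the 10 IGF genes, 7 entered the fit, and IGFBP3, IGFBP5 and IRS1 did not. The fit scaled libraries with TMM factors, which lay between 0.901 and 0.965 in the JQ1 libraries and between 1.0 and 1.1 in the others. With library totals as the scale, the median JQ1 log2 fold change of all genes moved from -0.00 to -0.20. The calls for JQ1 then went from 1655 higher and 1833 lower to 862 higher and 2925 lower.

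JQ1 exposure went with higher RNA of IGFBP2, IRS2 and IGFBP7. IGFBP2 was 9.0-fold higher (log2 fold change 3.17 ± 0.49 SE), IRS2 1.92-fold (0.94 ± 0.20) and IGFBP7 1.42-fold (0.50 ± 0.15). These were 3 of the 7 IGF genes tested, or 42.9%, against a background of 37.6% of all genes called for JQ1. All 3 rose and none fell, against 17.8% of all genes called higher and 19.7% called lower. At an unadjusted p under 0.05 there were 4 of the 7, against 48.3% of all genes, and the added gene was IGF1R. The median log2 fold change of the 7 genes was 0.41, beside -0.00 over all genes. No IGF gene was called for palbociclib with edgeR, against a background of 0.280% (0.205% higher and 0.0754% lower). At an unadjusted p under 0.05 there was 1 of the 7 (IGF1R), against 22.1% of all genes. None was called for paclitaxel, where 0 of 9288 genes were called with edgeR, and 0 of the 7 had an unadjusted p under 0.05, against 4.25% of all genes. DESeq2 called 1 of the 7 for palbociclib, where it called 515 of the 9288 genes. It called 0 of the 7 for paclitaxel, where it called 9 genes in all.

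**Figure D1:**
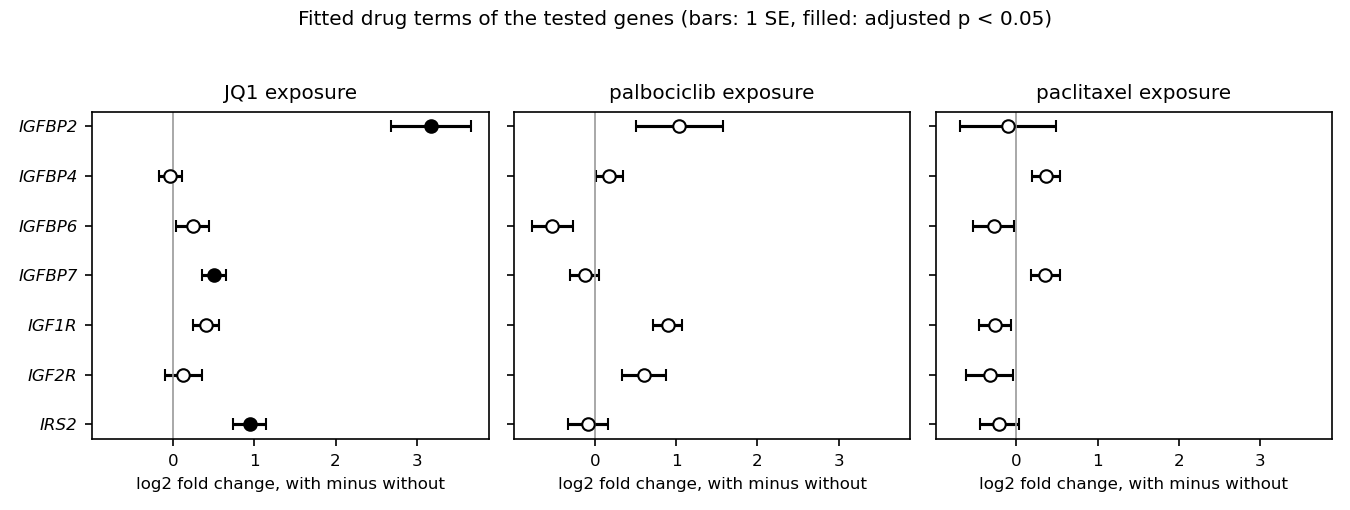
Fitted log2 fold change of each drug term (horizontal axes, libraries with the drug minus libraries without) for the 7 IGF genes that entered the fit (vertical axis), as points with bars of 1 SE; filled points passed adjusted p under 0.05. The filled points are IGFBP2 (3.17), IRS2 (0.94) and IGFBP7 (0.50) for JQ1, and no point is filled for palbociclib or paclitaxel.

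The sequences before the transcription starts of IGFBP2 and IRS2 are shown because these were the members whose JQ1 libraries all stood above all libraries without JQ1. The JQ1 groups did not overlap for these 2 of the 7 tested members, and for 28.2% of all genes in either direction. RefSeq (GRCh38.p14) gave windows for 9 of the 10 genes (all but IGFBP7), 11 windows in all, of which 3 belonged to IGFBP2. The windows printed are chr2:216633170-216633419 on the plus strand for IGFBP2 and chr13:109786584-109786833 on the minus strand for IRS2, each the 250 bases before a start, 5′ to 3′. Capitals mark GC boxes (GGGCGG, or CCGCCC on the other strand, overlapping matches counted).
IGFBP2: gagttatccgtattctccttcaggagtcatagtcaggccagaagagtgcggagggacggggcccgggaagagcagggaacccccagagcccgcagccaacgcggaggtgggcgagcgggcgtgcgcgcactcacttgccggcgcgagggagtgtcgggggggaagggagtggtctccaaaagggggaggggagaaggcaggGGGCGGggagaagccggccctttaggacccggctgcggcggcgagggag
IRS2: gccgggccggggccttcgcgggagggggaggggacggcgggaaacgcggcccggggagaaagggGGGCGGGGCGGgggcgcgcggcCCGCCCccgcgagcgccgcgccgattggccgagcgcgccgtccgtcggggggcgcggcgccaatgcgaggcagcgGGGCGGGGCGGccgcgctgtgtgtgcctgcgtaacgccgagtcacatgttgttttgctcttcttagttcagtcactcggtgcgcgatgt
The IGFBP2 window held 1 GC box and 22 CpG dinucleotides, and its other windows held 7 and 4 CpG. The IRS2 window held 5 GC boxes and 42 CpG. Among members not tested or not called for JQ1, windows ranged from IGFBP5 (0 GC boxes and 8 CpG) to IGF2R (6 and 33) and IGF1R (2 and 48). Over all 35116 windows of the same length the median was 11 CpG, 42.6% held a GC box and 13.9% held 3 or more. A TATA box (TATAAA or TTTATA), present in 10.7% of all windows, was found for IGFBP4 and for no other of the 9 genes. The E-box CACGTG, present in 6.34% of all windows and 3 or more times in 0.0797%, was found for IGF2R, with 3 matches.

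IGFBP2 binds IGF1 and IGF2 and is secreted by many carcinomas. Its level was 0.709 CPM before treatment, 6.21 in DMSO, 4.95 in paclitaxel and 5.92 in palbociclib. With JQ1 it was 40.2 CPM in JQ1-A, 21.9 in JQ1-B, 18.5 in JQ1+paclitaxel and 69.0 in JQ1+palbociclib. The lowest JQ1 library stood above the highest library without JQ1, so the groups did not overlap, as held for 28.2% of all genes. The means were 37.4 ± 23.1 CPM with JQ1 and 4.45 ± 2.55 without (SD, n = 4 and 4), and the JQ1 term had an adjusted p of 0.00296 in edgeR's quasi-likelihood test. Without the pre-treatment library the JQ1 term was 2.77 on the log2 scale. The rise stood in each of the 3 pairs of libraries that shared an experiment and a partner drug.

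Single libraries were compared by their ratio of CPM, with exact 95% intervals that cover counting error only. IGFBP2 was 6.47-fold higher in JQ1-A than in DMSO (5.02 to 8.47), 3.75-fold higher in JQ1+paclitaxel than in paclitaxel (2.94 to 4.81) and 11.7-fold higher in JQ1+palbociclib than in palbociclib (9.50 to 14.4). Against the JQ1 library of the same experiment, JQ1+paclitaxel was lower (ratio 0.461, 0.398 to 0.533) and JQ1+palbociclib was higher (3.15, 2.84 to 3.51). The JQ1 libraries of the separate experiments themselves differed by a ratio of 1.84 (1.63 to 2.08, JQ1-A over JQ1-B). DMSO exceeded the pre-treatment library by a ratio of 8.76 (4.48 to 19.1), on 66 and 10 UMIs.

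An interaction term asked whether a combination differed from the sum of its drugs, and none was called for IGFBP2. The JQ1 by palbociclib interaction of IGFBP2 was 0.08 ± 0.93 on the log2 scale (adjusted p = 0.975, edgeR) and the JQ1 by paclitaxel interaction was -1.33 ± 0.94 (adjusted p = 0.490). None of the 7 IGF genes was called for either term with edgeR or with DESeq2. The background of calls was 0.0108% for the palbociclib interaction (all lower) and 0.388% for the paclitaxel interaction (0.355% higher and 0.0323% lower). At an unadjusted p under 0.05 there were 1 gene (IGF2R) and 2 genes (IGFBP4 and IGFBP7), against 17.0% of all genes for each term. The palbociclib interaction of IGFBP2 turned on which untreated library was kept, with 1.04 without the pre-treatment library and -2.06 without DMSO. The paclitaxel interaction of IGFBP2 did so too, with -0.37 without the pre-treatment library and -3.48 without DMSO. These fits kept a single untreated library and fewer residual degrees of freedom than the 2 of the full interaction fit, so only effect sizes are given here. With all libraries and no filter on low counts, the paclitaxel interaction of IGFBP2 passed (-1.46, adjusted p = 0.000893, edgeR).

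**Figure D2:**
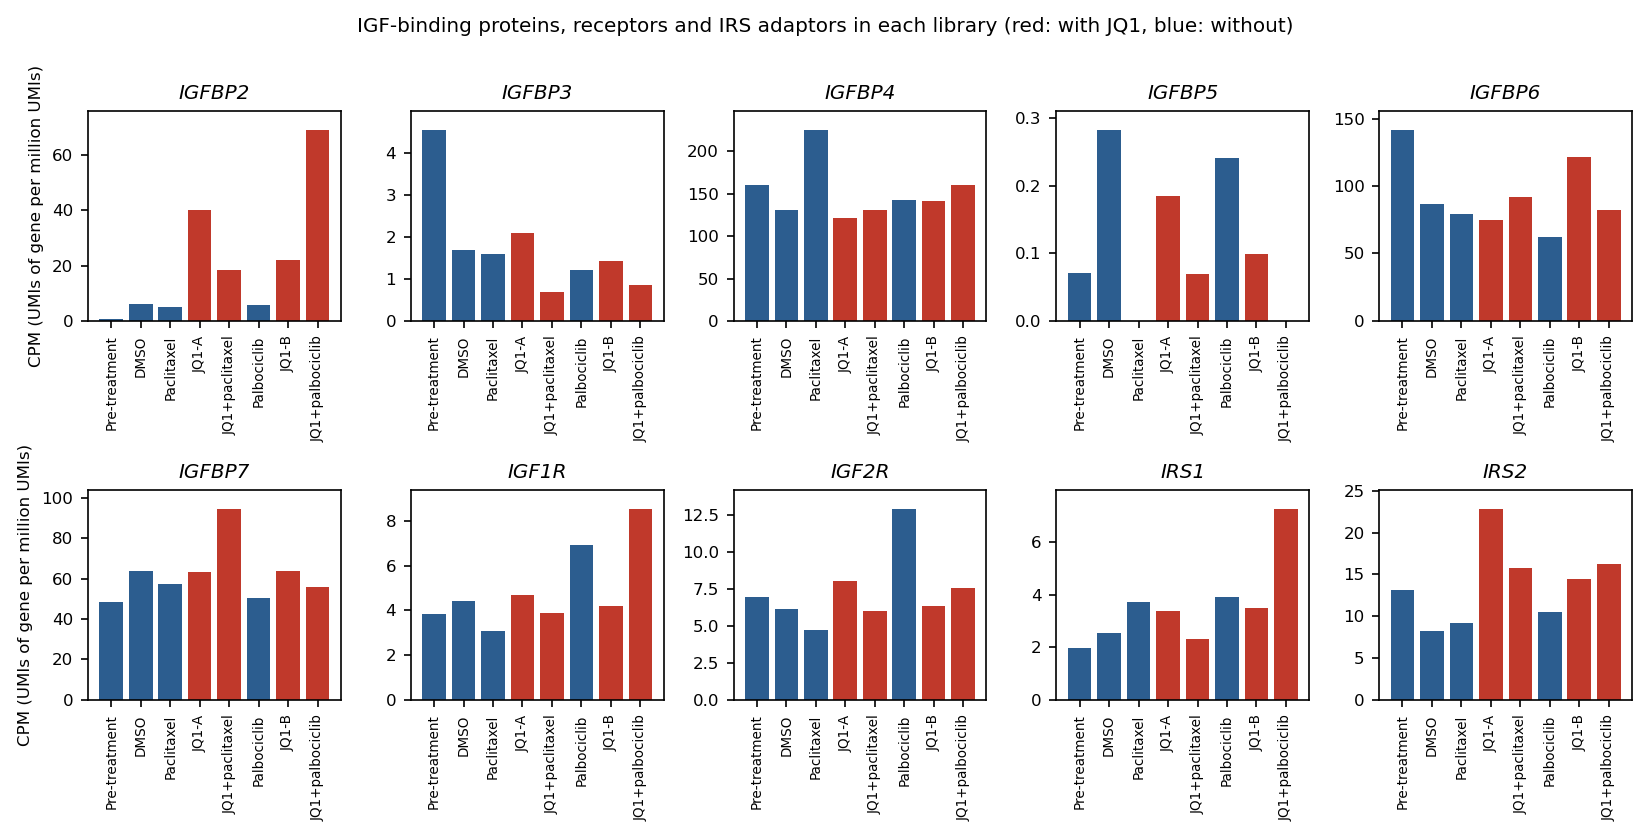
Level of each IGF gene (vertical axes, CPM from 0, scaled per gene) in the 8 libraries (horizontal axes), red with JQ1 and blue without; each bar is 1 library with no replicate. IGFBP2 runs from 0.709 CPM before treatment to 69.0 in JQ1+palbociclib, and IGF1R and IRS1 are highest in JQ1+palbociclib.

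More cells, and not only more RNA in a few cells, held IGFBP2 in the JQ1 libraries. A UMI was found in 1.33% of pre-treatment cells, 10.0% of DMSO, 8.64% of paclitaxel and 11% of palbociclib cells. The shares were 45.3% in JQ1-A, 31.8% in JQ1-B, 25.5% in JQ1+paclitaxel and 64.6% in JQ1+palbociclib. Their exact 95% intervals ran from 22.2% upward with JQ1 and up to 13.5% without. In cells thinned to 10000 UMIs, the lowest share with JQ1 was 14.9% and the highest without was 6.07%. All cells were of 1 line, so no cell type that lacks the gene was at hand to measure free RNA, and the pre-treatment share was the lowest seen.

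Among the JQ1 libraries, the spread of IGFBP2 between cells was lowest in JQ1+palbociclib. The thinned share there was 43.9%, and 49.0% would hold a UMI if every cell had the same mean. Its spread, the squared coefficient of variation (CV) beyond counting noise, was 0.56 in JQ1+palbociclib, 1.31 in JQ1-A, 1.54 in JQ1-B and 2.22 in JQ1+paclitaxel. In each of these libraries at least 94.1% of genes of like mean had a lower spread. The highest count in a thinned cell was 6 UMIs, in JQ1+palbociclib.

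IGFBP2 (plus strand) and IGFBP5 (minus strand) are neighbours on chromosome 2 and lie 7.668 kb apart in GENCODE release 44 on GRCh37. IGFBP2 spans 217497551 to 217529159 and IGFBP5 spans 217536828 to 217560272. IGFBP5 had 14 UMIs in all libraries together, between 0 and 0.282 CPM, and was hardly detected with or without JQ1. Its share of cells with a UMI was at most 0.654%, and in paclitaxel and JQ1+palbociclib it was 0 of 752 and 0 of 1024 cells, which allows a share of cells with a UMI of up to 0.399% and 0.293% (3 counts of the total). Of the 3 nearest tested genes on each side of IGFBP2, 53.6 to 1610 kb away, 1 was called for JQ1 (XRCC5, lower). Their median log2 fold change was 0.05.

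IGFBP4, a binding protein that is cleaved by the protease PAPPA, showed no JQ1 term beyond its error. Its level was 160 CPM before treatment, 130 in DMSO, 225 in paclitaxel and 142 in palbociclib. It was 121 CPM in JQ1-A, 141 in JQ1-B, 131 in JQ1+paclitaxel and 160 in JQ1+palbociclib. The paclitaxel library stood above the other 7, and the JQ1 groups overlapped. The JQ1 term was -0.03 ± 0.14 (adjusted p = 0.868, edgeR) and the paclitaxel term was 0.36 ± 0.17 (adjusted p = 0.885). JQ1+paclitaxel stood below paclitaxel by a ratio of 0.581 (0.550 to 0.614, counting error only). The JQ1 by paclitaxel interaction of -0.58 ± 0.23 did not pass the test (adjusted p = 0.245, edgeR). This interaction did pass under an alternative that kept all libraries (lowest adjusted p = 0.0248, edgeR).

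Paclitaxel cells had more high counts of IGFBP4. Among thinned cells, 15.6% of paclitaxel cells held 5 or more UMIs, against 2.97 to 7.89% in the other libraries, and the highest cell held 19. In the same library, IGFBP4 UMIs correlated across 732 cells with the metallothionein MT2A (Pearson r = 0.36), which was its closest gene there. MT2A was also its closest gene in pre-treatment cells (r = 0.25). In DMSO the closest was MT1X (0.19), with MT2A at 0.17. MT2A was not among its closest genes in the libraries with JQ1 or palbociclib. Such correlations share library and depth, and are given as descriptions.

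IGFBP6, which binds IGF2 in preference to IGF1, was highest before treatment and lowest in palbociclib. It stood at 141 CPM before treatment, 86.9 in DMSO, 78.9 in paclitaxel and 62.0 in palbociclib. It stood at 74.7 CPM in JQ1-A, 122 in JQ1-B, 92.0 in JQ1+paclitaxel and 82.5 in JQ1+palbociclib. The groups overlapped for every drug, and the JQ1 libraries of the separate experiments differed by a ratio of 0.613 (0.572 to 0.657, JQ1-A over JQ1-B). The JQ1 term was 0.24 ± 0.20 (adjusted p = 0.366, edgeR) and the palbociclib term -0.52 ± 0.25 (adjusted p = 0.265).

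IGFBP7 was called for JQ1 on a small difference between overlapping groups. Its level was 48.6 CPM before treatment, 64.1 in DMSO, 57.5 in paclitaxel and 50.4 in palbociclib. It was 63.6 CPM in JQ1-A, 63.6 in JQ1-B, 94.5 in JQ1+paclitaxel and 55.9 in JQ1+palbociclib. JQ1+paclitaxel stood apart, and JQ1-A was level with DMSO (ratio 0.992, 0.899 to 1.09). The means were 69.4 ± 17.1 CPM with JQ1 and 55.2 ± 7.10 without (SD, n = 4 and 4), with an adjusted p of 0.0286 (edgeR). The call was lost with library totals as the scale (0.30, adjusted p = 0.115) and with the experiment as a further term (0.48, adjusted p = 0.165).

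The IGFBP7 call also rested on single libraries. It was lost without JQ1+paclitaxel (0.34, adjusted p = 0.0633) and without paclitaxel (0.34, adjusted p = 0.0619), and likewise without the pre-treatment, JQ1-A or JQ1-B library (0.45 to 0.53). The JQ1 by paclitaxel interaction was 0.58 ± 0.24 (adjusted p = 0.264, edgeR). The annotated span of IGFBP7 on chromosome 4 (57896939 to 57976551, minus strand) overlaps that of POLR2B on the other strand. The sources used here do not give whether counting used strand, and POLR2B had a JQ1 term of 0.13 (adjusted p = 0.299).

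IGFBP7 was spread unevenly between cells in every library. In JQ1+paclitaxel, 41.9% of thinned cells held a UMI, against 61.9% for an even spread, and the 10% of cells with most UMIs held 51.5% of them. That top share lay between 51.5 and 67.1% over the 8 libraries, with the highest value before treatment. The spread of IGFBP7 was 1.48 in paclitaxel to 3.56 before treatment, above that of 98.7 to 99.5% of genes of like mean in every library. The corresponding ranges were 0.39 to 0.86 for IGFBP4 and 0.26 to 0.82 for IGFBP6.

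Spread was tested between libraries for members that reached a mean of 0.5 UMI per thinned cell in all libraries, which were IGFBP4 and IGFBP6. IGFBP4 had a spread of 0.56 ± 0.21 with JQ1 and 0.59 ± 0.17 without (SD, n = 4 and 4; two-sided exact permutation p = 0.857, adjusted 0.857 over both genes). IGFBP6 had 0.61 ± 0.24 with JQ1 and 0.38 ± 0.14 without (exact permutation p = 0.2, adjusted 0.4). The smallest p that 4 against 4 libraries allow is 0.0286. The median spread of 1586 genes was 0.14 to 0.16 in the JQ1 libraries and 0.09 to 0.14 in the others.

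**Figure D3:**
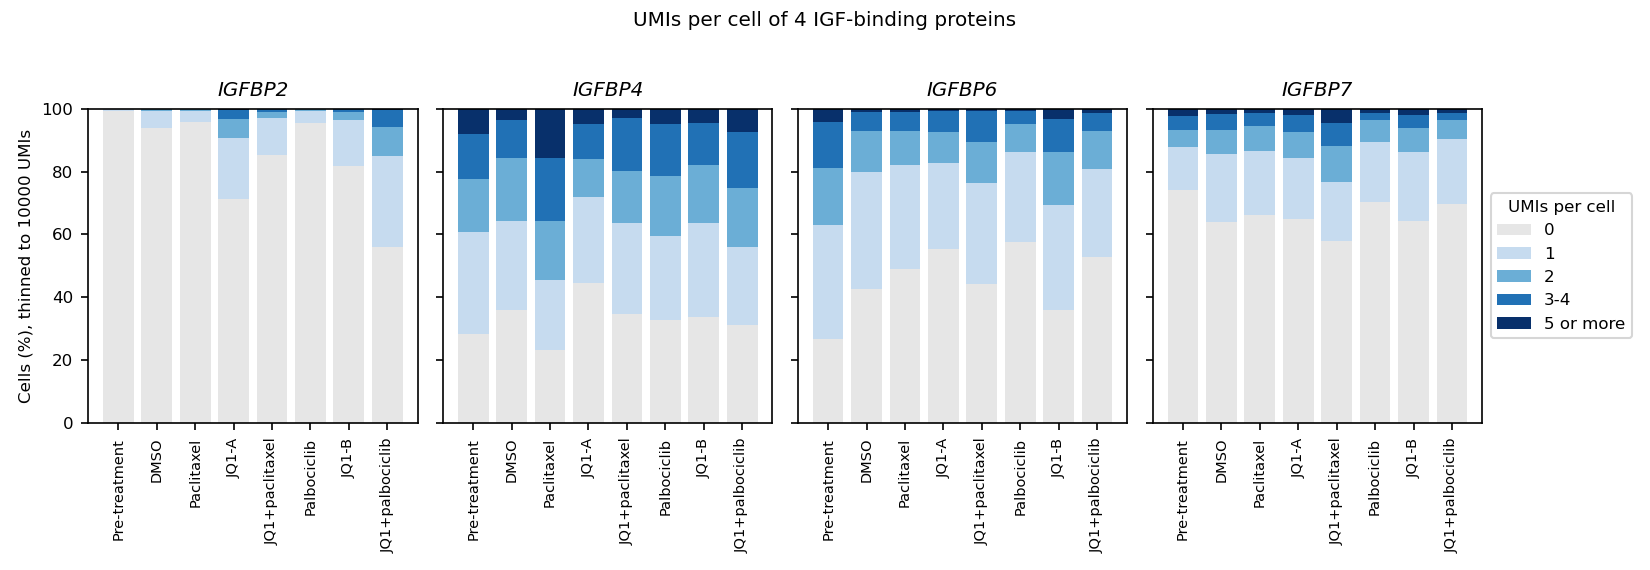
Share of thinned cells (vertical axis, percent of cells) with 0, 1, 2, 3 to 4, or 5 or more UMIs of 4 binding proteins in each library (horizontal axes). Cells without an IGFBP2 UMI make up 99.3% before treatment and 56.1% in JQ1+palbociclib, and the share with 5 or more UMIs of IGFBP4 is largest in paclitaxel (15.6%).

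Correlations across the cells of a library were computed between IGFBP2, IGFBP4, IGFBP6, IGFBP7 and IRS2, where both genes had a mean of at least 0.2 UMI per thinned cell. Over these 37 combinations of a pair and a library, r lay between -0.06 and 0.14 (445 to 972 cells). The genes closest to IGFBP7 in JQ1+paclitaxel (606 cells) were LGALS1, a secreted lectin (r = 0.40) and S100A10 (0.36), and the most opposed was the ribosomal gene RPL10 (-0.39). In JQ1+palbociclib (972 cells) the gene closest to IGFBP6 was S100A4 (r = 0.35), while IGFBP4 was opposed to RPL21 (-0.34).

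Cells were also divided by whether they held a UMI of a further gene (COL1A1, PKIB, FABP4 or SAA1), chosen with earlier results of these data known, as a description with counting intervals and no test, with CPM taken over thinned cells. In JQ1+palbociclib, IGFBP6 stood at 132 CPM (115 to 151) in the 168 cells with COL1A1, a collagen gene, and at 68.0 (62.5 to 74.0) in the other 804. IGFBP2 stood at 41.3 CPM (32.9 to 51.2) in 201 cells with PKIB and at 74.1 (68.1 to 80.4) in 771 without, and IGFBP7 at 68.7 (57.7 to 81.1) and 42.7 (38.2 to 47.5). In palbociclib, IGFBP7 stood at 36.3 CPM (29.9 to 43.6) in 314 cells with SAA1 and at 60.1 (52.2 to 68.8) in 348 without. IGFBP2 and IGFBP7 thus differed in opposite directions between cells with and without PKIB. Intervals also stood apart for IGFBP2 by COL1A1 (83.9 CPM with and 63.8 without) and for IGFBP7 by FABP4 in JQ1+paclitaxel (75.5 and 104). They did so for IGFBP6 by PKIB (98.0 and 74.2). Those of IGFBP4 stood apart too, lower with COL1A1 (139 and 170) and SAA1 (131 and 165) and higher with PKIB (191 and 158). The intervals of IGFBP3, IGFBP5, IGF1R, IGF2R, IRS1 and IRS2 overlapped in all 4 divisions.

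IGFBP3, the main carrier of IGFs in serum, was too low to enter the fit. It stood at 4.54 CPM before treatment, and between 0.697 (JQ1+paclitaxel) and 2.1 (JQ1-A) in the other 7 libraries, with 225 UMIs in all. DMSO stood below the pre-treatment library by a ratio of 0.373 (0.208 to 0.638), so the lower level was already present in passaged cells without drug. Fitted without the filter on low counts, its JQ1 term was -0.62 ± 0.33 (adjusted p = 0.197, edgeR).

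IGF1R, the signalling receptor for IGF1 and IGF2, was highest in both palbociclib libraries. Its level was 3.83 CPM before treatment, 4.43 in DMSO, 3.08 in paclitaxel, 4.70 in JQ1-A, 4.19 in JQ1-B and 3.90 in JQ1+paclitaxel. It was 6.95 CPM in palbociclib and 8.54 in JQ1+palbociclib. Both stood above the other 6. The palbociclib groups did not overlap for 14.4% of all genes in either direction. The means were 7.74 ± 1.13 CPM with palbociclib (SD, n = 2) and 4.02 ± 0.562 without (n = 6). The palbociclib term was 0.90 ± 0.18, 1.86-fold, with an adjusted p of 0.0716 (edgeR), and so was not called. It passed with DESeq2 (adjusted p = 0.0342) and with no filter on low counts (adjusted p = 0.0499).

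IGF1R had a JQ1 by palbociclib interaction of 0.01 ± 0.37 (adjusted p = 0.994, edgeR), and its JQ1 term was 0.41 ± 0.16 (adjusted p = 0.0719). JQ1+palbociclib exceeded JQ1-B by a ratio of 2.04 (1.58 to 2.66) and palbociclib by 1.23 (0.974 to 1.56, counting error only). A UMI was found in 15.4% of palbociclib and 17.9% of JQ1+palbociclib cells, and in 7.18 to 10.0% of cells in the other libraries. Both libraries came from 1 experiment with no vehicle library, in which JQ1-B, without palbociclib, stood at 4.19 CPM. With the experiment as a further term the palbociclib term was 1.04 ± 0.37 (adjusted p = 0.898), in a fit that called 0 genes for palbociclib. INSR, the insulin receptor and closest relative of IGF1R, had a palbociclib term of 0.75 ± 0.27 (adjusted p = 0.159) and a JQ1 term of 0.11 ± 0.23 (adjusted p = 0.729), which was -0.08 with library totals as the scale.

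IGF2R was highest in palbociclib alone. It stood at 6.95 CPM before treatment, 6.12 in DMSO, 4.73 in paclitaxel, 8.03 in JQ1-A, 6.35 in JQ1-B and 6.00 in JQ1+paclitaxel. It stood at 12.9 CPM in palbociclib and 7.55 in JQ1+palbociclib. JQ1+palbociclib lay within the range of the libraries without palbociclib, below palbociclib by a ratio of 0.587 (0.479 to 0.718). The JQ1 by palbociclib interaction was -1.07 ± 0.33, with an unadjusted p of 0.00900 and an adjusted p of 0.171 (edgeR), and was not called. The palbociclib term was 0.61 ± 0.27 (adjusted p = 0.234), which was 1.15 without the JQ1+palbociclib library (adjusted p = 0.0274) and -0.02 without the palbociclib library. Both paclitaxel libraries stood below the other 6, with a paclitaxel term of -0.33 ± 0.29 (adjusted p = 0.893, edgeR). The paclitaxel groups did not overlap for 4.22% of all genes in either direction.

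IRS2, an adaptor that links IGF1R and INSR to PI3K, rose with JQ1. Its level was 13.1 CPM before treatment, 8.29 in DMSO, 9.13 in paclitaxel and 10.5 in palbociclib. It was 22.8 CPM in JQ1-A, 14.4 in JQ1-B, 15.8 in JQ1+paclitaxel and 16.2 in JQ1+palbociclib. All 4 JQ1 libraries stood above the other 4, though JQ1-B and the pre-treatment library were close. The JQ1 groups did not overlap for 28.2% of all genes. The means were 17.3 ± 3.74 CPM and 10.2 ± 2.11 (SD, n = 4 and 4), with an adjusted p of 0.00884 (edgeR). The ratio was 2.75 (2.18 to 3.51) for JQ1-A over DMSO, 1.73 (1.41 to 2.12) for JQ1+paclitaxel over paclitaxel and 1.55 (1.29 to 1.87) for JQ1+palbociclib over palbociclib. A UMI was found in 25.8 to 34.6% of cells with JQ1 and in 16.1 to 24.3% without.

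IRS1, the other main adaptor, did not enter the fit and was highest in JQ1+palbociclib. It stood at 1.99 CPM before treatment, 2.54 in DMSO, 3.74 in paclitaxel, 3.93 in palbociclib, 3.4 in JQ1-A, 3.5 in JQ1-B and 2.3 in JQ1+paclitaxel. It stood at 7.26 CPM in JQ1+palbociclib, by a ratio of 1.85 above palbociclib (1.38 to 2.50) and 2.08 above JQ1-B (1.57 to 2.77). Fitted without the filter, its palbociclib term was 0.97 ± 0.29 (adjusted p = 0.117) and its JQ1 term 0.57 ± 0.25 (adjusted p = 0.119, edgeR). IRS2 did not share that pattern, since its palbociclib term was -0.08 ± 0.24 (adjusted p = 0.866).

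**Figure D4:**
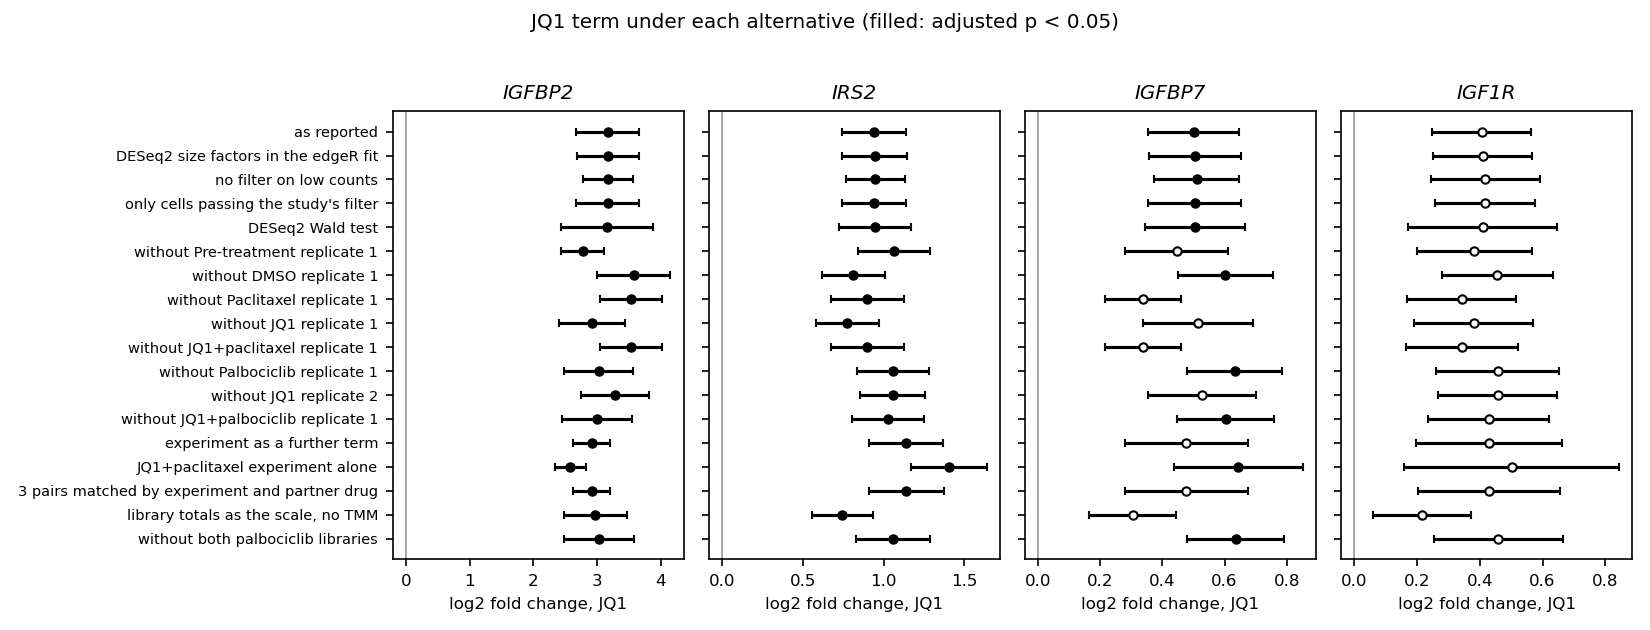
JQ1 log2 fold change (horizontal axes) of IGFBP2, IRS2, IGFBP7 and IGF1R under each alternative (rows), as points with bars of 1 SE, filled at adjusted p under 0.05; JQ1 replicates 1 and 2 are JQ1-A and JQ1-B. IGFBP2 stays between 2.58 and 3.58 and IRS2 between 0.75 and 1.40, filled in every row, while IGFBP7 loses its call in 8 rows and IGF1R has none.

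The rest of the pathway was read from 7 lists of 103 further genes, of which 96 were in the table and 73 entered the fit. For JQ1, 31 of the 73 were called (42.5%, against 37.6% of all genes), 26 higher and 5 lower, and the median log2 fold change of the 73 was 0.26, beside -0.00 over all genes. With library totals as the scale it was 15 higher and 11 lower, and with the experiment as a further term 2 higher (HTRA1 and CTSD) and 1 lower (CTSL). With 1 library left out, ADAM9, STC1, CTSB and IGF2BP2 each lost their JQ1 call in 6 of 8 fits, TSC2 in 5 and SOCS3 in 4 (adjusted p up to 0.147). For palbociclib, HTRA1 was the gene of the 73 called with edgeR, which called 26 of all 9288 genes. DESeq2 called 8 of the 73, and 515 of all 9288 genes. For paclitaxel 0 genes were called with edgeR.

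Ligand RNA was hardly detected. IGF2 had 6 UMIs and IGFBP1, another binding protein, 3 UMIs in all 8 libraries. The IGF-like genes had 1 to 30 UMIs in a library for IGFL1, 0 to 20 for IGFL2 and 0 to 3 for IGFL3. IGF1, INS, INSRR, IGFALS and IGFBPL1 were looked for and were not among the 18955 genes. Among the proteases that cut binding proteins and their inhibitors, 4 of 6 tested genes rose with JQ1 and none fell (66.7% called, against 37.6% of all genes). HTRA1, a secreted serine protease that cleaves IGFBPs, stood at 32.3 ± 17.6 CPM with JQ1 and 13.5 ± 9.83 without (log2 fold change 1.55 ± 0.22, adjusted p = 0.00224, edgeR), and had a palbociclib term of 1.67 ± 0.25 (adjusted p = 0.0436). The palbociclib call was lost in 4 of 8 fits without 1 library (adjusted p up to 0.215) and with the experiment as a further term (adjusted p = 0.898). The lysosomal protease CTSD rose by 0.97 ± 0.16 (adjusted p = 0.00375) and the membrane protease ADAM9 by 0.65 ± 0.18 (adjusted p = 0.0246, and 0.141 with the experiment as a further term). The remaining gene that rose was STC1, an inhibitor of PAPPA (0.36 ± 0.11, adjusted p = 0.0402, and 0.269 with library totals). PAPPA itself had at most 2 UMIs in any library.

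Of 14 adaptors and regulators tested, 5 rose and 1 fell with JQ1 (42.9% called, against 37.6% of all genes). The suppressors of cytokine signalling, which can mark IRS proteins for degradation, moved in opposite directions. SOCS1 rose from 4.11 ± 1.19 to 9.34 ± 2.11 CPM (1.37 ± 0.29, adjusted p = 0.00922, edgeR), and SOCS3 fell from 15.6 ± 6.38 to 5.05 ± 1.42 CPM (-1.38 ± 0.37, adjusted p = 0.0205). SHC1, an adaptor that leads to RAS, rose by 0.72 ± 0.14 (adjusted p = 0.00643), and SOS2, an exchange factor for RAS, by 0.71 ± 0.18 (adjusted p = 0.0188).

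Of 26 PI3K, AKT and mTOR genes tested, 7 rose and 1 fell with JQ1, so that 30.8% were called, below the 37.6% of all genes. The regulatory subunits of PI3K led the rises, PIK3R3 with 1.35 ± 0.30 (adjusted p = 0.0107, edgeR) and PIK3R1 with 0.76 ± 0.16 (adjusted p = 0.00796), followed by TSC2, a brake on mTOR (0.61 ± 0.18, adjusted p = 0.0286, and 0.0709 with library totals). The gene that fell was EIF4E, the cap-binding translation factor, from 81.7 ± 28.6 to 46.2 ± 6.02 CPM (-0.56 ± 0.14, adjusted p = 0.0154).

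Of 10 FOXO factors and targets tested, 5 rose and none fell with JQ1 (50% called, against 37.6% of all genes), and the list median was 0.93. SESN3, a sestrin that restrains mTOR, rose by 2.75 ± 0.52 (adjusted p = 0.00584, edgeR), the repressor BCL6 by 1.24 ± 0.33 (adjusted p = 0.0204) and CITED2 by 1.08 ± 0.22 (adjusted p = 0.00801). FOXO3 itself rose by 0.83 ± 0.20 (adjusted p = 0.0134, edgeR). The list was not set apart by JQ1 alone, since its palbociclib median was 0.67, with 10 genes positive and 0 called with edgeR. SESN3 stood at 15.9 CPM in palbociclib alone, above JQ1-A (7.60), JQ1-B (6.65) and JQ1+paclitaxel (10.8) and below JQ1+palbociclib (32.6). IRS2 is also a known FOXO target and was counted with the 10 IGF genes, not in this list.

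The mannose 6-phosphate list, of lysosomal sorting and enzyme genes, went both ways, with 4 of 14 genes higher and 3 lower for JQ1 (50% called, against 37.6% of all genes). The sorting receptor SORT1 rose from 7.61 ± 3.01 to 17.6 ± 1.93 CPM (1.47 ± 0.27, adjusted p = 0.00579, edgeR), with GNPTG (0.62 ± 0.14, adjusted p = 0.0130) and CTSB (0.29 ± 0.10, adjusted p = 0.0431, and 0.448 with library totals). The protease CTSL fell from 76.9 ± 14.3 to 35.8 ± 7.18 CPM (-0.91 ± 0.16, adjusted p = 0.00507), with NAGPA (-0.88 ± 0.15, adjusted p = 0.00453). IGF2R had a JQ1 term of 0.13 ± 0.23 (adjusted p = 0.683), which was -0.07 with library totals as the scale. Of the RNA-binding proteins named for IGF2 mRNA, IGF2BP2 rose with JQ1 (0.42 ± 0.13, adjusted p = 0.0367, and 0.174 with library totals) and IGF2BP3 had a term of -0.30 ± 0.33 (adjusted p = 0.482).

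**Figure D5:**
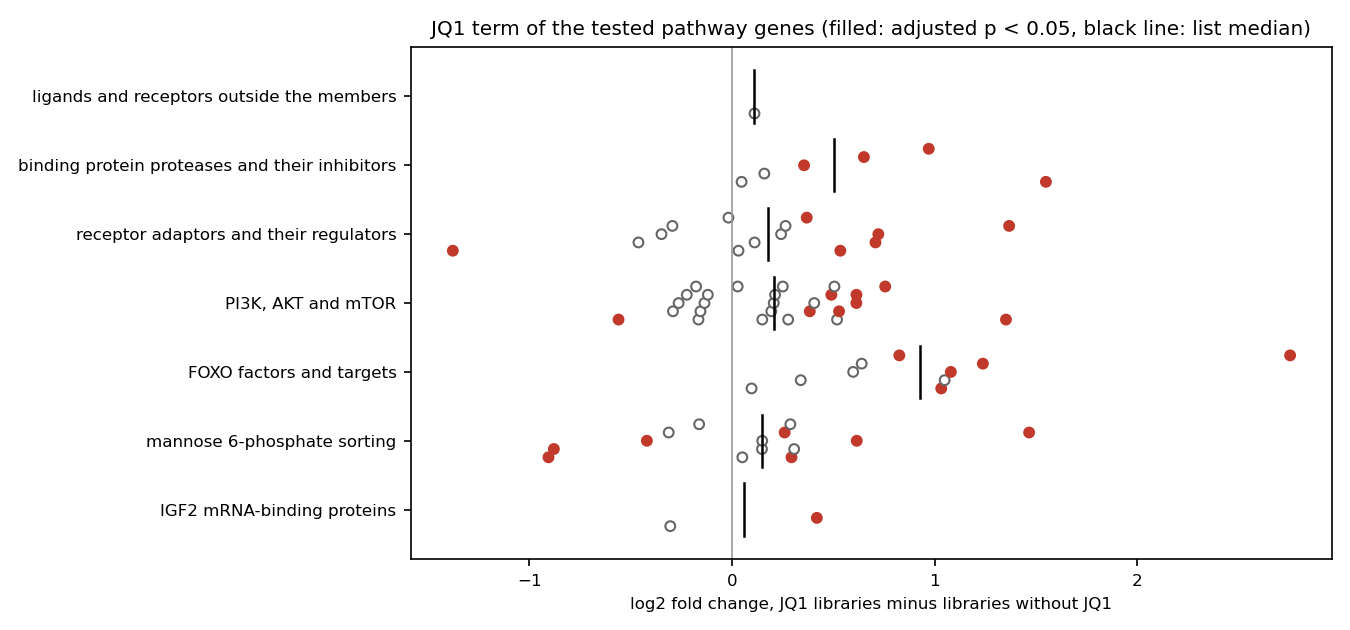
JQ1 log2 fold change (horizontal axis) of the 73 tested pathway genes, 1 point per gene, by list (vertical axis); filled points passed adjusted p under 0.05 and black lines are list medians. FOXO factors and targets have the highest list median (0.93), and SESN3 is the point farthest to the right (2.75).

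Across the 8 libraries, the gene whose level was most like that of IGFBP2, among 4433 candidates averaging 20 CPM or more, was USP34 (Pearson r = 0.97 on log2(CPM + 1)), followed by GPC1, a heparan sulphate proteoglycan (0.96). The closest gene to IRS2 was SPRY2, an inhibitor of receptor tyrosine kinase signalling (0.93), to IGF1R it was VMP1 (0.99), to IGFBP7 NOL3 (0.90), to IGF2R TOMM7 (0.96), to IGFBP4 LINC00958 (0.98) and to IGFBP6 ORMDL2 (0.89). These are descriptions over 8 libraries that share treatments and depth, picked as the highest among many genes.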

How the data were processed

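Single-cell RNA libraries of SUM159 cells were sequenced by the authors. They aligned reads to hg19 and counted UMIs with Cell Ranger, and handled cells with Seurat (per the submitters' processing notes). The deposited table holds raw UMI counts for 18955 genes in 5738 cells, and the rarest gene was found in 3 cells, and a second file gives the library of each cell. No column of values was left unused. The cell totals listed in that file differ from the summed counts by up to 38 UMIs.

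Counts were summed per library and tested with edgeR 4.0.16 (limma 3.58.1, R 4.3.3) by the quasi-likelihood F-test with TMM factors and additive drug terms, which left 4 residual degrees of freedom, or 2 with interactions. P-values were adjusted over all 9288 genes tested (Benjamini-Hochberg). Each SE was derived from the fold change and its F and is approximate. The fit was tested on simulated data. Cells passing the study's filter (1 to 15% mitochondrial UMIs and at least 2000 genes, 5575 cells) were thinned to 10000 UMIs, which 5487 reached, and analysed with Python 3.11.15, numpy 2.4.6, scipy 1.17.1 and pandas 2.3.3. Doublets were not called. Gene positions came from GENCODE release 44 on GRCh37 and promoter windows from RefSeq.

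The 10 genes, the pathway lists and the tests were chosen with earlier results of these data known, among them the rise of IGFBP2 with JQ1, which is therefore no independent support. Of each list, up to 3 called genes with the largest changes in each direction were named, with the ligands and receptors, and STC1, FOXO3, PAPPA and IGF2BP3 were named after their values were seen. Some items of the lists are not reported here. Alternatives were DESeq2 1.42.0 and its size factors, no filter on low counts, passing cells only, leaving out each library, the experiment as a term, matched pairs, 1 experiment alone and thinning to 5000 UMIs. Library totals in place of TMM, and leaving out both palbociclib libraries, were chosen after seeing the data.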

Additional observations from a re-analysis of the deposited data

Results flagged for a closer look

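In 28 groups of 4 to 6 libraries, the libraries' levels of the 7 tested genes were searched for 1 library far from the others, and 3 were found. Chance gives such a library in about 1 in 20 groups of like libraries. The groups here share libraries and mix treatments, so the 3 cannot be measured against that rate. IGFBP7 stood at 94.5 CPM in JQ1+paclitaxel, while the nearest of the other 5 libraries without palbociclib stood at 64.1. IGF1R stood at 8.54 CPM in JQ1+palbociclib, while the nearest of the other 3 libraries with JQ1 stood at 4.70. IGF2R stood at 12.9 CPM in palbociclib, while the nearest of the other 5 libraries without paclitaxel stood at 8.03.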

How the results depend on the processing

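IGFBP2 and IRS2 passed the JQ1 test under every alternative run. With each library left out in turn the JQ1 term lay between 2.77 and 3.58 for IGFBP2 and between 0.78 and 1.07 for IRS2. IGFBP7 lost its call in 8 of 17 alternatives. The IGF genes called for JQ1 numbered 2 or 3. For palbociclib 1 was called with no filter on low counts and 1 with DESeq2 (IGF1R in both), and 0 to 1 without a library. For the palbociclib interaction 0 to 3 were called without a library. For the paclitaxel interaction 2 were called with no filter, and 0 to 2 without a library. For paclitaxel 0 were called, and for spread between cells 0, in each alternative.

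Of all genes, 463 were called for JQ1 with the experiment as a term, 443 in matched pairs, and 1764 to 4214 without a library. Calls for palbociclib numbered 515 with DESeq2, 205 with no filter, 0 with the experiment as a term and 0 to 951 without a library. Calls for paclitaxel numbered 9 with DESeq2 and 2 with no filter. Calls for the palbociclib interaction numbered 34 with DESeq2, 689 with no filter and 0 to 1133 without a library, and for the paclitaxel interaction 75, 724 and 1 to 1127. Library totals moved the share of JQ1 calls that were higher from 47.4% to 22.8%.

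Some terms that missed the test changed sign. With the experiment as a term these were IRS2 for palbociclib (0.37) and IGFBP6 for paclitaxel (0.10). With library totals they were IGF2R (-0.066) and INSR (-0.081) for JQ1, and with no filter the paclitaxel interaction of IRS2 (-0.077). With each library left out, the JQ1 term ranged from -0.12 to 0.13 for IGFBP4, -0.036 to 0.47 for IGF2R, -0.12 to 0.26 for INSR and -0.71 to 0.13 for IGF2BP3. The palbociclib term ranged from -0.33 to 0.073 for IGFBP7, -0.015 to 1.15 for IGF2R and -0.25 to 0.10 for IRS2. The paclitaxel term ranged from -0.70 to 0.66 for IGFBP2, -0.96 to 0.053 for INSR and -0.62 to 1.13 for IGF2BP3. The palbociclib interaction ranged from -2.06 to 1.04 for IGFBP2, -0.018 to 0.29 for IGFBP4, -0.090 to 0.11 for IGF1R and -0.71 to 0.054 for IRS2, and the paclitaxel interaction from -0.34 to 0.43 for IRS2. The cause of these changes was not tested. No paired analysis was possible because the groups share fewer than 2 replicate numbers, and the matched pairs given above join libraries by experiment and partner drug, not by number. Each treatment had 1 library within an experiment, so no treatment has a replicate library within an experiment, and IGFBP3, IGFBP5 and IRS1 were limited by few UMIs.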

Other observations

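Several genes of the pathway lists were too low to be tested, and are named here after their values were seen. PDK4, a FOXO target that restrains glucose oxidation, stood at 0.0709 to 0.967 CPM in the 4 libraries without JQ1 and at 1.18 to 7.46 with JQ1. SOCS2 went the other way, with 1.22 ± 0.323 CPM with JQ1 and 4.59 ± 0.578 without, and no overlap. IGFL1, a gene of the IGF-like family, stood at 0.055 to 0.377 CPM before treatment, in DMSO and in paclitaxel, 0.967 in palbociclib and 0.743 to 1.85 with JQ1, so that the groups overlapped. These levels rest on few UMIs and carry no test, and the JQ1 groups did not overlap for 28.2% of the genes that were tested.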
